A study of Sus scrofa with 8 samples.

Results

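Interferon stimulated genes were followed in 8 bulk RNA-seq libraries of porcine pancreatic ductal organoids (PPDO), which are epithelial cultures grown from pig pancreatic ducts. The genes are a fixed list of 41 symbols, chosen by name for their known induction by interferon, with earlier results of these data known. A row of the count table belonged to a member if its gene name, without the suffix for an isoform or an extended end, equalled the symbol, and the rows of a gene were summed. Of the 41 symbols, 38 were found, out of 30282 genes in the table. IFIT3 and XAF1 were not analysed here, and the gene known as RIGI was analysed under its older name DDX58. All 38 members passed the filter on low counts, as did 14475 genes in total. OAS1, OASL, RSAD2 and ZBP1 passed it only with their libraries in differentiation medium, where they were higher, so tests on them carry little weight.

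Interferons are secreted proteins that a cell releases when it senses foreign or misplaced nucleic acid. They bind receptors on the same and on neighbouring cells, JAK kinases then activate STAT proteins, and STAT2 with IRF9 is part of a complex that switches on the interferon stimulated genes. The products of these genes block virus replication, sense nucleic acid, degrade RNA or stop protein synthesis, and some of them, such as USP18, damp the signal again. Epithelial cells carry this system too, and several members are themselves parts of it, so that the list holds sensors and transcription factors as well as effectors.

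The libraries come from the study's differentiation test. It compared PPDO grown with and without growth-promoting cytokines to see whether their identity changed. Lines were derived from manually picked ducts of German landrace pigs, wild-type or carrying INS-eGFP, in which the porcine insulin promoter drives eGFP in beta cells. The study treats each of the 4 lines as a biological replicate, and which line carried the transgene is not given in the sources used here. Em was made from an embryonic pancreas, EPN1 and EPN2 from early postnatal pancreata and LPN from a late postnatal, adolescent pancreas. Each line was grown in both media for a week, which gives 4 libraries per medium and 1 library per line and medium. Complete medium held N2, B27, the TGF-β receptor inhibitor A83-01, prostaglandin E2, WNT3a, R-spondin1, noggin, FGF10, EGF, gastrin, the ROCK inhibitor Y-27632, nicotinamide and N-acetylcysteine. Differentiation medium lacked prostaglandin E2, WNT3a, R-spondin1, noggin, FGF10, EGF and gastrin, and kept the rest, so that A83-01 and Y-27632 were present in both. For maintenance of the lines, a conditioned medium supplement (L-WRN) took the place of WNT3a, R-spondin1 and noggin. The samples were assigned to media by their titles, since another label names an endocrine induction medium for all 8. Stage and line cannot be told apart for Em and LPN, and no test was possible within a line.

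The libraries held 40553593 to 47910657 counts, and values are given as CPM, counts scaled to a common library size with TMM factors. The limit of detection, set at 3 counts, corresponded to 0.0626 to 0.0740 CPM and accounts for counting error alone. The change within a line is the difference of log2(CPM + 0.5) between differentiation and complete medium, a scale that understates the change of low genes. A change over 2-fold means more than 1 on that scale. In bulk RNA, more cells that express a gene and more RNA per cell cannot be told apart. Duct markers were abundant in all libraries, with KRT7 at 522 CPM or more, and the summed CPM of 8 duct and epithelial markers was 9104 in Em, 7021 in LPN, 6567 in EPN1 and 6687 in EPN2 in complete medium.

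The interferon stimulated genes were higher in differentiation medium in the Em line by a median log2 change of 3.26, and in EPN1 and EPN2 by 1.02 and 1.10. In LPN the median was 0.07. The median over all genes tested was 0.00 in Em, -0.01 in LPN, 0.01 in EPN1 and -0.01 in EPN2. The Em library in differentiation medium stood apart from the other 7 for this list. Summed over the 38 members, expression went from 674 to 5978 CPM in Em, from 446 to 507 CPM in LPN, from 502 to 1085 CPM in EPN1 and from 564 to 1265 CPM in EPN2.

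**Figure D1:**
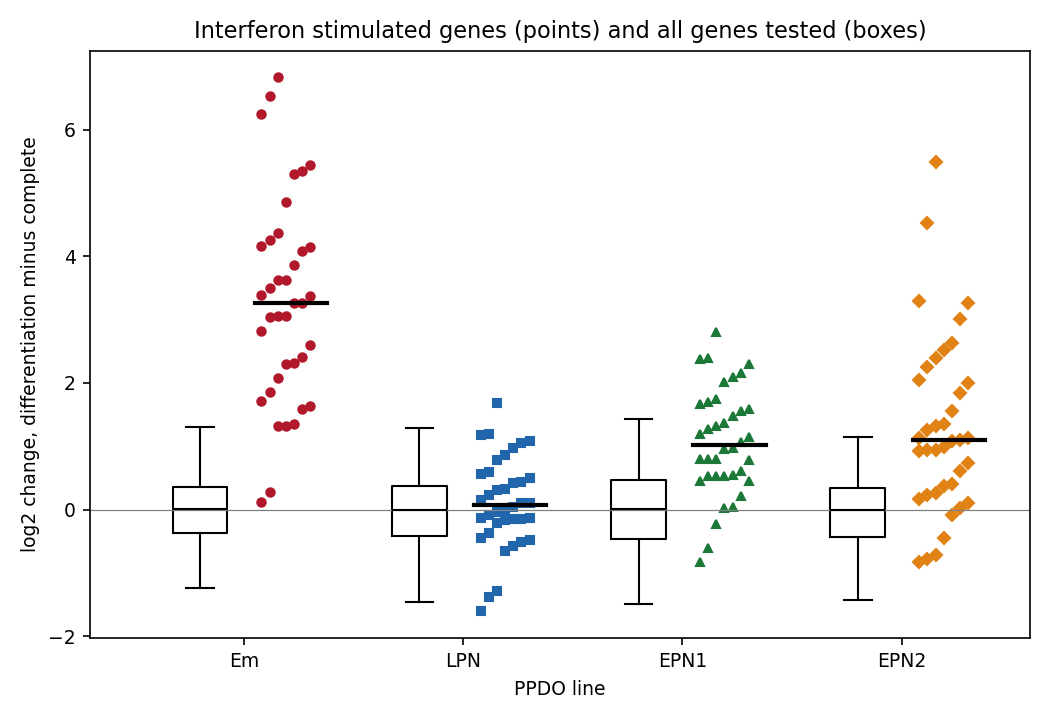
Change with medium in each line, as log2(CPM + 0.5) in differentiation minus complete medium. Points are the 38 interferon stimulated genes with their median as a bar, and boxes show the median, the quartiles and the 5th to 95th percentile of the 14475 genes tested. The members' medians were 3.26 in Em, 0.07 in LPN, 1.02 in EPN1 and 1.10 in EPN2, whereas the medians of all genes lay within 0.0102 of 0.

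All 38 members were higher in differentiation medium in Em, 35 were in EPN1, 33 in EPN2 and 20 in LPN. Of all genes tested, 50.1% were higher in Em, 50.3% in EPN1, 49.1% in EPN2 and 49.3% in LPN. The LPN count thus lay near the share of all genes. In Em, 36 members were over 2-fold higher, against 7.53% of all genes tested, and 23 were over 8-fold higher, against 1.17%. In EPN1 19 members were over 2-fold higher, against 9.59% of all genes, and in EPN2 20 were, against 6.22%. In LPN 5 were over 2-fold higher, against 7.45% of all genes, namely ISG20, MX2, RSAD2, HERC5 and SAMD9. Members over 2-fold lower were seen in LPN only, where IFI6, LGALS3BP and BST2 made 3 of 38 against 9.83% of all genes. No member was over 2-fold lower in Em, EPN1 or EPN2, where 7.21%, 10.3% and 9.38% of all genes were.

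The order of the lines was largely shared by the members. Em had the largest change of the 4 lines for 37 members, against 27.8% of all genes tested, and MX1, IFIT1 and ISG15 were among them. LPN had the smallest change for 33 members, against 18.2% of all genes. EPN1 and EPN2 did not have a fixed order, and the change was larger in EPN2 for 18 members. A change over 2-fold in each of Em, EPN1 and EPN2 was found for 16 members, against 1.55% of all genes, and 13 of these were not over 2-fold in LPN, against 0.304%. RSAD2, HERC5 and SAMD9 were over 2-fold higher in all 4 lines, 12 members were so in Em alone, and IRF1 and IFI35 were so in no line. No share over all genes was counted for these groups, so they describe the members alone.

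**Figure D2:**
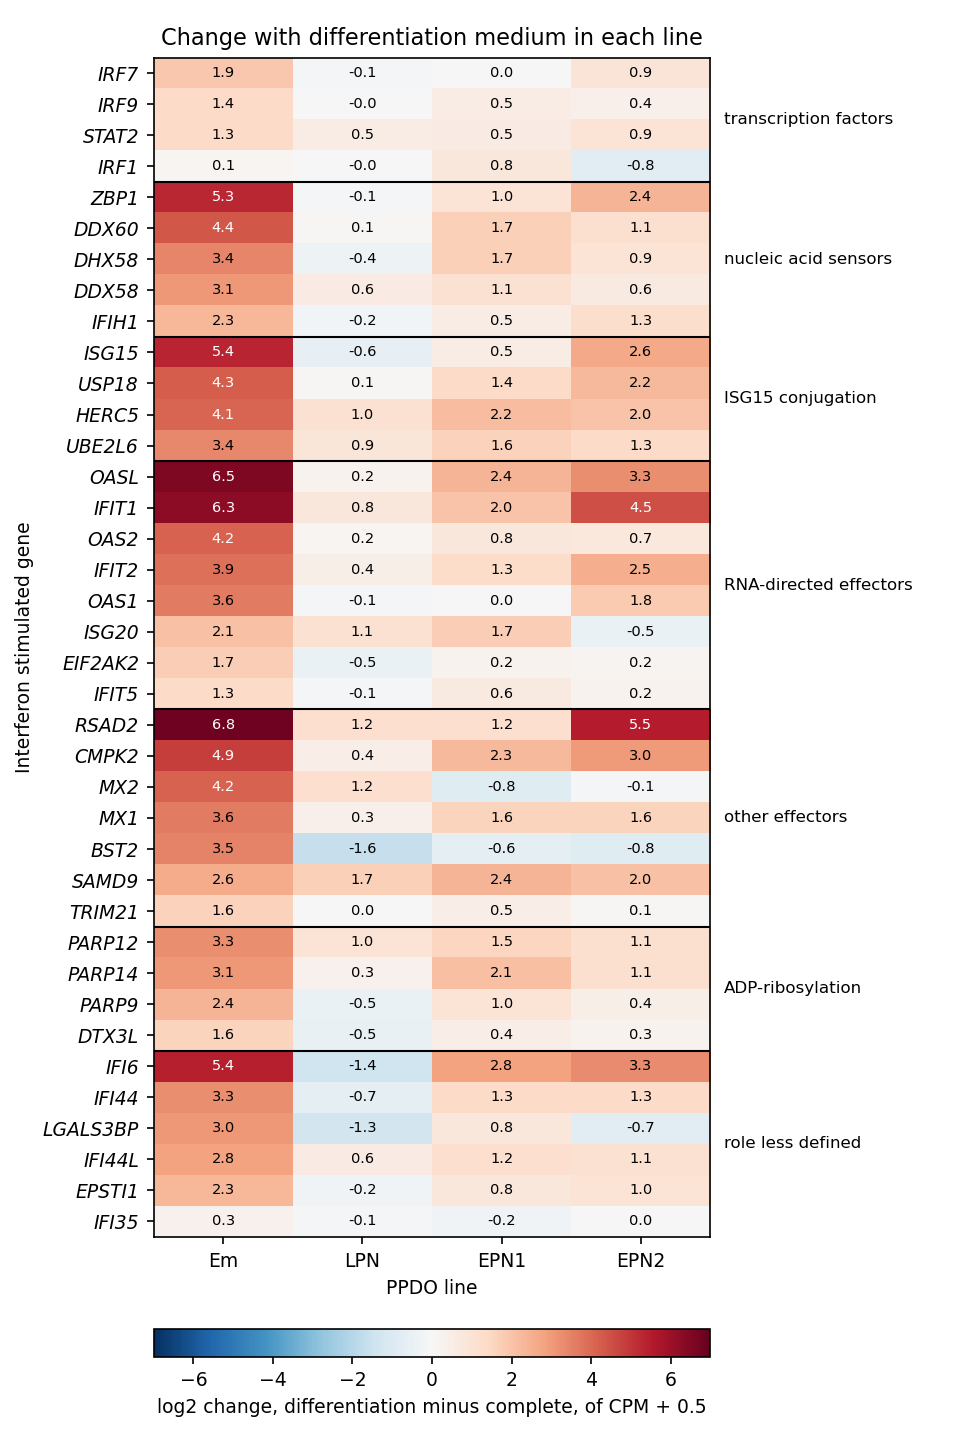
Heat map of the log2 change of CPM + 0.5 between differentiation and complete medium for the 38 members, grouped by role, with the value of each line printed in its cell. Em is highest in every row except IRF1, and the LPN column is close to 0 for most rows, from -1.60 for BST2 to 1.68 for SAMD9.

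Tested over the 4 libraries per medium with edgeR's quasi-likelihood test and no term for the line, 2 members rose in differentiation medium, STAT2 and SAMD9. This is 2 of 38, against 2.87% of all genes tested higher and 6.97% in either direction. No member fell over the 8 libraries, with edgeR or with DESeq2, against 4.1% of all genes in edgeR. At an unadjusted p under 0.05, 23 members were higher and 0 lower, against 13% of all genes higher and 27.3% in either direction. Among the 23 were OASL, RSAD2 and ZBP1, which passed the filter on low counts through their libraries in differentiation medium and carry little weight in this count. The median log2 fold change of the members was 2.23 against 0.01 for all genes, and 37 members had a positive value, the exception being IFI35 at -0.02. The standard errors of the members had a median of 0.86 against 0.28 for all genes.

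Since each line was grown in both media, the fit was repeated with the line as a block, and 7 members rose, against 9.48% of all genes tested. These were OASL, HERC5, STAT2, CMPK2, PARP12, SAMD9 and UBE2L6, and the median log2 fold change was 1.40. Of these, OASL passed the filter on low counts through its libraries in differentiation medium. DESeq2 without the block called 20 members higher, against 8.86% of the genes it gave an adjusted p, and returned no adjusted p for MX2, OAS2 and BST2. DESeq2 with the block also called 20, against 18.2%. Both sets of 20 held OASL, RSAD2 and ZBP1, which had few counts in complete medium. Without the Em line edgeR called 0 members, against 0.317% of all genes, and the unadjusted count was 13, against 11.8%. With the line as a block and without Em, 6 members rose in edgeR, against 5.78% of all genes, of which HERC5, STAT2, PARP12, SAMD9 and UBE2L6 were also among the 7, IFI44L was not, and OASL and CMPK2 no longer passed. DESeq2 without Em called 12 members higher without the block, against 5.61%, and 17 with it, against 13.3%. In the latter BST2 was called lower, as were 13.4% of the genes given an adjusted p. The median log2 fold change without Em was 1.06, and 34 members had a positive value.

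**Figure D3:**
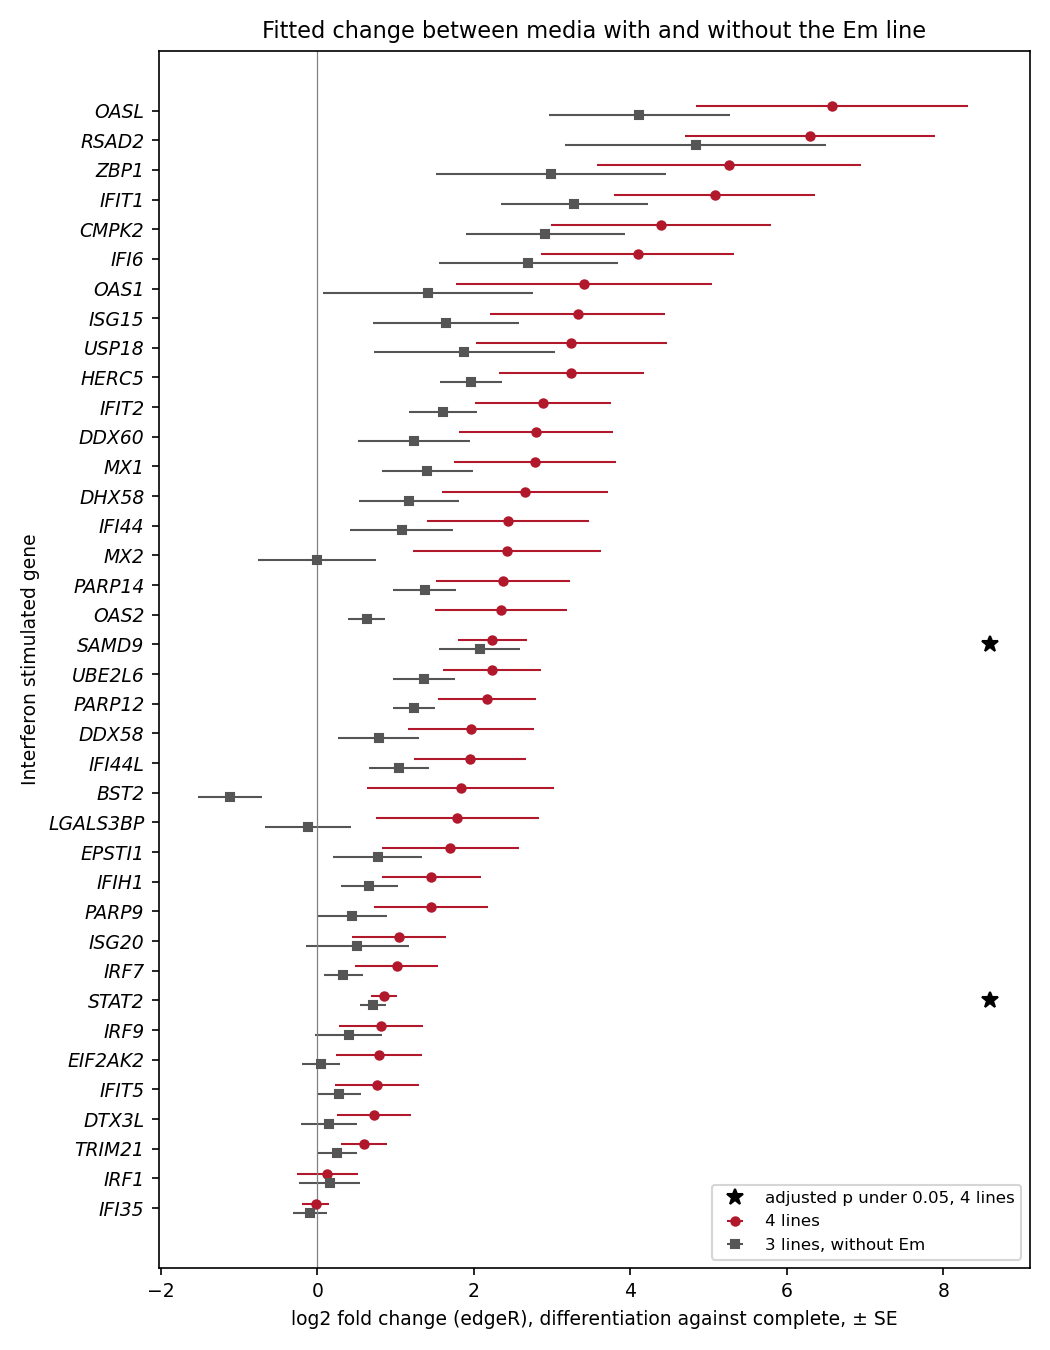
Log2 fold change from edgeR with its standard error for each member, fitted on all 4 lines (circles) and on the 3 lines without Em (squares). The stars mark SAMD9 and STAT2, the 2 members with an adjusted p under 0.05, and the squares lie to the left of the circles for most members, with medians of 1.06 and 2.23.

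The 4 transcription factors had a median log2 fold change of 0.83, and 1 of them passed in edgeR. STAT2 (ENSSSCG00000000396), which joins IRF9 in the complex that binds interferon stimulated genes, is at chr5:21733030-21748960 in the RefSeq annotation of Sscrofa11.1. Its expression in complete medium was 38.2 CPM in Em, 45.0 in LPN, 47.0 in EPN1 and 48.2 in EPN2, and in differentiation medium it was 96.4, 64.0, 68.9 and 92.5 CPM in the same order. All 4 libraries in differentiation medium exceeded all 4 in complete medium, with means of 80.4 ± 16.4 and 44.6 ± 4.44 CPM (SD, n = 4). The log2 fold change was 0.85 with a standard error of 0.17 and an adjusted p of 0.0293 in edgeR. The call was held in 3 of 8 fits that left out 1 library, those without EPN2 in either medium and without LPN in differentiation medium, and lost in 5, with adjusted p-values of 0.0559 to 0.0890.

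IRF9, the DNA-binding subunit of that complex, was measured at 18.0 CPM in Em, 7.28 in LPN, 12.8 in EPN1 and 12.9 in EPN2 in complete medium, and at 46.9, 7.20, 18.8 and 17.0 CPM in differentiation medium. Em was highest and LPN lowest in both media, and the groups overlapped (log2 fold change 0.82, standard error 0.54, adjusted p = 0.359, edgeR). The log2 fold change of IRF9 was 0.17 when the Em library in differentiation medium was left out. IRF7, which drives transcription of interferon genes, went from 31.3 to 115 CPM in Em and from 19.0 to 36.7 CPM in EPN2. In LPN and EPN1 its log2 change was -0.14 and 0.03, and the groups overlapped. IRF1, a factor that responds strongly to interferon gamma, had no shared direction among the lines. It was at 54.1, 31.1, 30.4 and 30.6 CPM in Em, LPN, EPN1 and EPN2 in complete medium and at 58.6, 30.2, 53.1 and 17.6 CPM in differentiation medium.

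Among the 5 sensors of nucleic acid 0 passed the test in edgeR, and all 5 were over 2-fold higher in Em, 3 in EPN1, 3 in EPN2 and 0 in LPN. DESeq2 called DHX58, ZBP1 and DDX60 higher without the block, and these and DDX58 with it. DDX58, the RIG-I helicase that recognises RNA with a free end, was at 8.4, 4.0, 4.3 and 10.1 CPM in Em, LPN, EPN1 and EPN2 in complete medium. In differentiation medium it was at 73.4, 6.13, 9.54 and 15.7 CPM. It was higher in all 4 lines and the groups overlapped (log2 fold change 1.96, standard error 0.80, adjusted p = 0.161, edgeR), and its log2 fold change was 0.64 without the Em library in differentiation medium. IFIH1, the MDA5 sensor of long double-stranded RNA, went from 13.1 to 66.1 CPM in Em and from 7.28 to 18.0 CPM in EPN2, and was slightly lower in LPN. DHX58, the LGP2 helicase that modulates the other sensors, went from 3.74 to 44.0 CPM in Em and from 1.3 to 5.31 CPM in EPN1.

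ZBP1, a sensor of left-handed nucleic acid linked to necroptosis, was close to the detection limit in complete medium. Its counts there were 11 in Em, 4 in LPN, 5 in EPN1 and 18 in EPN2, and in differentiation medium they were 1385, 2, 31 and 183. The high values were thus those of Em and EPN2, whereas LPN was under the limit of 3 counts in differentiation medium (log2 fold change 5.26, standard error 1.69, adjusted p = 0.0968, edgeR). Leaving out the Em library in differentiation medium gave a log2 fold change of 2.93 for ZBP1. ZBP1 passed the filter on low counts through its libraries in differentiation medium, where it was high, so its calls carry little weight. DDX60, a helicase that supports the RNA sensors, went from 15.3 to 325 CPM in Em, while LPN had 8.19 and 8.82 CPM.

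The 4 genes of the ISG15 conjugation system were all over 2-fold higher in Em and in EPN2. ISG15, the ubiquitin-like protein that is attached to other proteins, was at 4.85, 5.14, 10.5 and 8.84 CPM in Em, LPN, EPN1 and EPN2 in complete medium. In differentiation medium it was at 218, 3.28, 15.4 and 57.3 CPM. Em was thus the lowest line in complete and the highest in differentiation medium, and LPN was lower in differentiation than in complete medium (log2 fold change 3.33, standard error 1.12, adjusted p = 0.108, edgeR). The log2 fold change of ISG15 was 1.79 without the Em library in differentiation medium.

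UBE2L6, the enzyme that passes ISG15 on, had no overlap between media, with 12.4, 9.21, 9.06 and 16.2 CPM in Em, LPN, EPN1 and EPN2 in complete medium and 133, 17.1, 28.4 and 42.0 CPM in differentiation medium. HERC5, a ligase of the same pathway, was at 9.72, 4.12, 4.83 and 5.27 CPM in complete medium and at 172, 9.05, 23.2 and 22.5 CPM in differentiation medium. HERC5 was over 2-fold higher in each line, and only the LPN value in differentiation medium lay below the highest value in complete medium. Both rose when the line was a block, UBE2L6 with an adjusted p of 0.0427 and HERC5 with 0.0322 in edgeR, and neither passed without it (0.0697 and 0.0742). Fitted without the block, their log2 fold changes went from 2.23 to 1.32 for UBE2L6 and from 3.24 to 1.61 for HERC5 when the Em library in differentiation medium was left out. USP18, which removes ISG15 and silences the interferon receptor, was at 3.139, 0.512, 3.80 and 2.46 CPM in complete medium and at 69.4, 0.584, 10.6 and 13.6 CPM in differentiation medium. LPN was the lowest line for USP18 in both media.

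**Figure D4:**
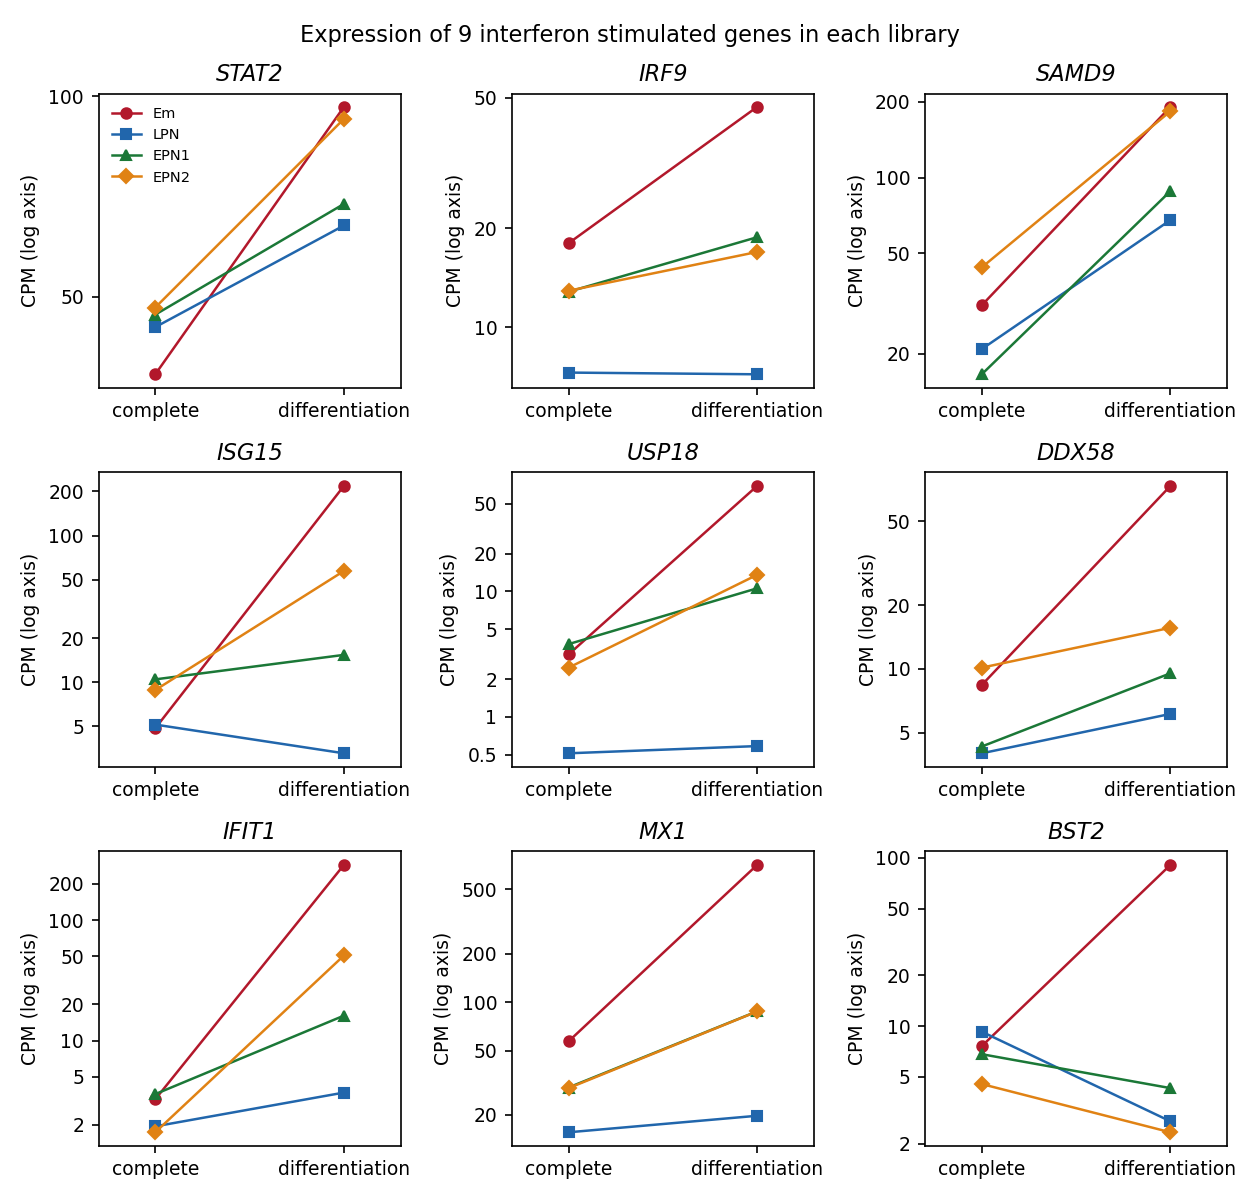
CPM on a log axis of 9 members in complete and differentiation medium, with a line joining the libraries of each PPDO line. STAT2 and SAMD9 separate the media in all 4 lines, IRF9 and USP18 are lowest in LPN in both media, and BST2 is higher in differentiation medium in Em only, at 90.9 CPM.

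Of the 8 effectors that act on RNA, 0 passed in edgeR without the block and 1 rose with it. DESeq2 called more of them higher, with IFIT1 and OASL among those called both without and with the block. IFIT1, which binds RNA that lacks the methylated cap of the host, was at 3.27, 1.95, 3.6 and 1.74 CPM in Em, LPN, EPN1 and EPN2 in complete medium and at 286, 3.71, 16.1 and 50.8 CPM in differentiation medium. The media did not overlap, although the LPN value of 3.71 lay close to the highest value in complete medium (log2 fold change 5.08, standard error 1.28, adjusted p = 0.0539, edgeR), and its log2 fold change was 3.16 without the Em library in differentiation medium. OASL, a relative of the oligoadenylate synthetases, had 19, 5, 12 and 6 counts in complete medium and 4047, 11, 162 and 240 counts in differentiation medium in Em, LPN, EPN1 and EPN2. OASL was higher in all 4 lines and rose in the fit with the line as a block, with a log2 fold change of 4.99, a standard error of 1.14 and an adjusted p of 0.0377 (edgeR). OASL passed the filter on low counts through its libraries in differentiation medium, where it was high, so this call carries little weight. Without the block the log2 fold change of OASL was 6.58, and 3.71 without the Em library in differentiation medium.

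OAS1 and OAS2 make the oligoadenylates that activate RNase L. OAS2 was even among the lines in complete medium, at 18.2, 21.4, 20.5 and 25.3 CPM, and was at 332, 23.9, 36.3 and 42.3 CPM in differentiation medium. OAS1 had 48, 3, 31 and 4 counts in complete medium and 895, 2, 34 and 69 counts in differentiation medium, so that it was at or under the limit in LPN in both media. EIF2AK2, the kinase PKR that stops translation, was over 2-fold higher in Em only, from 89.9 to 295 CPM. IFIT5, another RNA-binding member, was at 30.02 CPM in Em and at 13.6 to 21.3 CPM in the other lines in complete medium. In differentiation medium IFIT5 was at 76.1 CPM in Em and at 14.0 to 25.04 CPM elsewhere.

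Among the other effectors, SAMD9 (ENSSSCG00000027372), a cytoplasmic factor that restricts poxviruses, was over 2-fold higher in each line. It was at 31.1, 20.9, 16.6 and 44.0 CPM in Em, LPN, EPN1 and EPN2 in complete medium and at 191, 67.9, 88.4 and 183 CPM in differentiation medium. The media did not overlap, with means of 28.2 ± 12.2 and 133 ± 63.5 CPM (SD, n = 4). The log2 fold change was 2.24 with a standard error of 0.44 and an adjusted p of 0.03004 in edgeR, and the block reduced the standard error to 0.18 and the adjusted p to 0.00856. The call was held and lost in the same fits as that of STAT2, with an adjusted p of up to 0.0932. Without Em the log2 fold change of SAMD9 was 2.08 (adjusted p = 0.0999, edgeR).

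RSAD2, the enzyme viperin that makes a chain-terminating nucleotide, had 8, 3, 39 and 10 counts in Em, LPN, EPN1 and EPN2 in complete medium and 3672, 38, 119 and 1372 counts in differentiation medium. The high values were those of Em and EPN2, and EPN1 in complete medium, at 0.937 CPM, exceeded LPN in differentiation medium, at 0.793 CPM. RSAD2 passed the filter on low counts through its libraries in differentiation medium, so its calls carry little weight. CMPK2, the mitochondrial nucleotide kinase encoded beside it, was at 3.33, 0.439, 1.39 and 1.15 CPM in complete medium and at 111, 0.772, 8.80 and 12.8 CPM in differentiation medium. CMPK2 rose with the line as a block (log2 fold change 3.18, standard error 0.71, adjusted p = 0.0356, edgeR), where without it the adjusted p was 0.0961. Without the block the log2 fold change of CMPK2 was 4.39, and 2.24 without the Em library in differentiation medium.

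MX1 and MX2 are dynamin-like GTPases that trap viral particles. MX1 was at 57.0, 15.6, 29.5 and 29.2 CPM in Em, LPN, EPN1 and EPN2 in complete medium and at 710, 19.7, 87.6 and 87.4 CPM in differentiation medium, with EPN1 and EPN2 side by side in both. MX2 was at 9.81, 3.07, 8.17 and 18.5 CPM in complete medium and at 183, 7.64, 4.36 and 17.4 CPM in differentiation medium, so that it was higher in Em and LPN only. BST2, the tetherin that holds budding viruses at the cell surface, was at 7.60, 9.26, 6.80 and 4.52 CPM in complete medium and at 90.9, 2.71, 4.27 and 2.33 CPM in differentiation medium. BST2 was thus higher in Em and lower in the other 3 lines, and its log2 fold change was 1.83 with Em and -1.11 without it (adjusted p = 0.356 and 0.175, edgeR).

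The 4 members of the ADP-ribosylation group attach ADP-ribose to proteins or, as DTX3L does, pair with such an enzyme. PARP12, a mono-ADP-ribosyltransferase, was at 16.7, 11.8, 11.3 and 17.7 CPM in Em, LPN, EPN1 and EPN2 in complete medium and at 164, 23.7, 32.5 and 38.7 CPM in differentiation medium. Its media did not overlap, and it rose with the line as a block (log2 fold change 1.71, standard error 0.42, adjusted p = 0.0443, edgeR) but not without it (0.0749). Without the block the log2 fold change of PARP12 was 2.17, and 1.14 without the Em library in differentiation medium. PARP14 was over 2-fold higher in Em, EPN1 and EPN2, whereas PARP9 and DTX3L were so in Em alone and lower in LPN.

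The last 6 members have a role that is less defined, and 0 of them passed in edgeR, without or with the block. DESeq2 called IFI6, IFI44 and IFI44L higher without the block, and IFI6 and IFI44L with it. IFI44L was at 25.02, 15.2, 19.7 and 10.2 CPM in Em, LPN, EPN1 and EPN2 in complete medium and at 180, 23.07, 45.8 and 22.3 CPM in differentiation medium. EPSTI1 was at 9.94, 2.80, 4.57 and 4.88 CPM in complete medium and at 51.4, 2.34, 8.25 and 10.1 CPM in differentiation medium. In both genes Em was the highest line in each medium. IFI6, a membrane protein of the endoplasmic reticulum, had a log2 change of 5.44 in Em, 2.81 in EPN1, 3.29 in EPN2 and -1.37 in LPN. IFI35 was between 17.0 and 25.02 CPM in all 8 libraries. Over the whole list 6 members had no overlap between the media, against 8.82% of all genes tested higher in this way, namely IFIT1, IFIT2, STAT2, PARP12, SAMD9 and UBE2L6. Higher in all 4 lines were 18 members, against 23.9% of all genes. Lower in LPN only were 14 members, for which no share over all genes was counted.

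With 1 library per line in each medium, the order of the lines within a medium is a description with no test. In complete medium Em was the highest line for 20 members, EPN2 for 10, EPN1 for 5 and LPN for 3, where the shares over all genes tested were 28.2%, 28.2%, 22.6% and 21.1%. LPN was the lowest line for 17 members against 18.4% of all genes, and Em was the lowest for 4 against 28.4%. The median over members of the highest line divided by the lowest was 2.31, and it was 1.73 for all genes above 0. Against the mean of the other lines the median log2 difference was 0.47 in Em, -0.41 in LPN, -0.02 in EPN1 and -0.09 in EPN2. Among the 36 members with more than 3 counts in every library in complete medium, this ratio ranged from 1.26 for STAT2 to 7.60 for CMPK2.

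In differentiation medium the lines were farther apart and more of the members shared one order. Em was the highest line for 37 members, against 29.997% of all genes tested, and LPN was the lowest for 32, against 22.3%. The median log2 difference from the other lines was 3.10 in Em, -1.77 in LPN, -0.44 in EPN1 and -0.15 in EPN2. Em exceeded the mean of the other lines by a median of 7.71-fold, where the same median in complete medium was 1.38-fold.

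Whether lines differed was tested over both media with the medium as a term, so that each line was represented by 2 libraries. No member passed the test over the 4 lines in edgeR (15 at an unadjusted p under 0.05), with adjusted p-values of 0.0654 for SAMD9 to 0.708 for STAT2, against 5.14% of all genes tested that passed and 28.2% at the unadjusted level. Against the mean of the other lines, 4 members were higher and 0 lower in Em, against 3.02% of all genes higher and 6.18% in either direction, namely IFIT5, IRF9, CMPK2 and EPSTI1. The log2 difference was 1.46 for IFIT5, 1.34 for IRF9, 3.56 for CMPK2 and 2.35 for EPSTI1, with adjusted p-values of 0.0436, 0.0493, 0.0453 and 0.0466. SAMD9 was higher in EPN2, as were 5.86% of all genes. For LPN and EPN1 0 members passed in edgeR, where 0.677% (0.525% higher) and 0.00691% of all genes passed. At an unadjusted p under 0.05 there were 31 members for Em, against 26.3% of all genes, 10 for LPN, against 17.1%, 1 for EPN1, against 10.6%, and 2 for EPN2, against 29.6%. These differences pool both media, and a line by medium term could not be fitted with 1 library per line and medium.

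Of the 38 members, 37 were matched to the RefSeq annotation of Sscrofa11.1, and 14 of them lie in 6 clusters of genes no more than 200 kb apart. These are PARP14, DTX3L and PARP9 (chr13:137809499-138000862), MX2 and MX1 (chr13:204798633-204868927), OAS2 and OAS1 (chr14:38827667-38867427), IFIT2, IFIT1 and IFIT5 (chr14:101193421-101266105), RSAD2 and CMPK2 (chr3:128880853-128917873), and IFI44 and IFI44L (chr6:134634679-134679212). Neighbours did not always change alike. In Em the log2 change was 6.25 for IFIT1, 3.86 for IFIT2 and 1.33 for IFIT5, and in EPN1 it was 1.55 for MX1 and -0.83 for MX2. The IFIT, OAS and MX genes are families of related sequence, and how reads were divided between such copies cannot be read from the counts.

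Of 8 symbols of interferon ligands, 5 were in the table and 3 were not analysed here. IFNA1, IFNB1 and IFNG were at 0 or 1 count in every library. IFNE, an interferon made by epithelia, had 57, 394, 133 and 387 counts in Em, LPN, EPN1 and EPN2 in complete medium and 67, 242, 128 and 232 counts in differentiation medium. IFNE was thus lowest in Em in both media, and its log2 fold change was -0.63 (standard error 0.68, adjusted p = 0.586, edgeR). IFNK had at most 2 counts in complete medium and 2 to 11 in differentiation medium. IFNK did not pass the edgeR filter. DESeq2 without the block called it higher (adjusted p = 0.0467), and with the block it gave no adjusted p.

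The receptors were expressed in all libraries, and 0 of 6 genes passed in edgeR, with 1 at an unadjusted p under 0.05. IFNAR1, a subunit of the receptor for type I interferon, was at 139, 86.6, 87.2 and 53.2 CPM in Em, LPN, EPN1 and EPN2 in complete medium and at 157, 144, 158 and 45.8 CPM in differentiation medium. With the line as a block IFNGR2, a subunit of the receptor for interferon gamma, rose by 0.55 on the log2 scale (standard error 0.13, adjusted p = 0.0434, edgeR). None of the 5 signal transducers passed in edgeR, with or without the line as a block. At an unadjusted p under 0.05 there were 0 without the block, and with it JAK1, a kinase that binds interferon receptors, was (log2 fold change 0.30, adjusted p = 0.0908, edgeR).

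Over the 48 pathway genes tested outside the list, which comprise ligands, receptors, transducers, sensors and adaptors, negative regulators and other inducible genes, 2 rose and 0 fell in edgeR, against 2.87% and 4.1% of all genes tested. TRIM26, a ubiquitin ligase, was at 29.0, 34.6, 28.8 and 57.7 CPM in Em, LPN, EPN1 and EPN2 in complete medium and at 85.9, 70.2, 68.0 and 91.1 CPM in differentiation medium. Its media did not overlap, and its log2 fold change was 1.07 (standard error 0.25, adjusted p = 0.0428). NLRC5, a regulator of antigen presentation genes, had 12, 8, 8 and 3 counts in complete medium and 263, 19, 47 and 76 counts in differentiation medium, higher in each line. The log2 fold change of NLRC5 was 3.58 (standard error 0.86, adjusted p = 0.0465). NLRC5 passed the filter on low counts through its libraries in differentiation medium, where it was high, so its calls here carry little weight. In the fit blocked by line 7 of the 48 passed. TRIM26, HERC6, PLSCR1, NLRC5 and IFNGR2 rose, which is 5 of 48 against 9.48% of all genes tested higher in that fit, and STING1 and PTPN6 fell, against 10.4% of all genes tested lower. Without Em 0 of 47 passed in edgeR.

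HERC6 and PLSCR1 were higher in all 4 lines, as were 23.9% of all genes tested. PLSCR1, a phospholipid scramblase, had log2 changes of 1.66 in Em, 1.61 in LPN, 1.42 in EPN1 and 1.33 in EPN2, and it rose with the line as a block (adjusted p = 0.00811, edgeR). HERC6, a relative of HERC5, had log2 changes of 5.12, 1.99, 3.08 and 1.74 in Em, LPN, EPN1 and EPN2. STING1, the adaptor of the DNA sensing pathway, was at 4.94, 3.26, 1.49 and 1.90 CPM in complete medium and at 1.83, 1.54, 0.859 and 0.537 CPM in differentiation medium. STING1 was lower in each line, and the groups overlapped (edgeR, adjusted p = 0.169 without the block and 0.0343 with it).

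**Figure D5:**
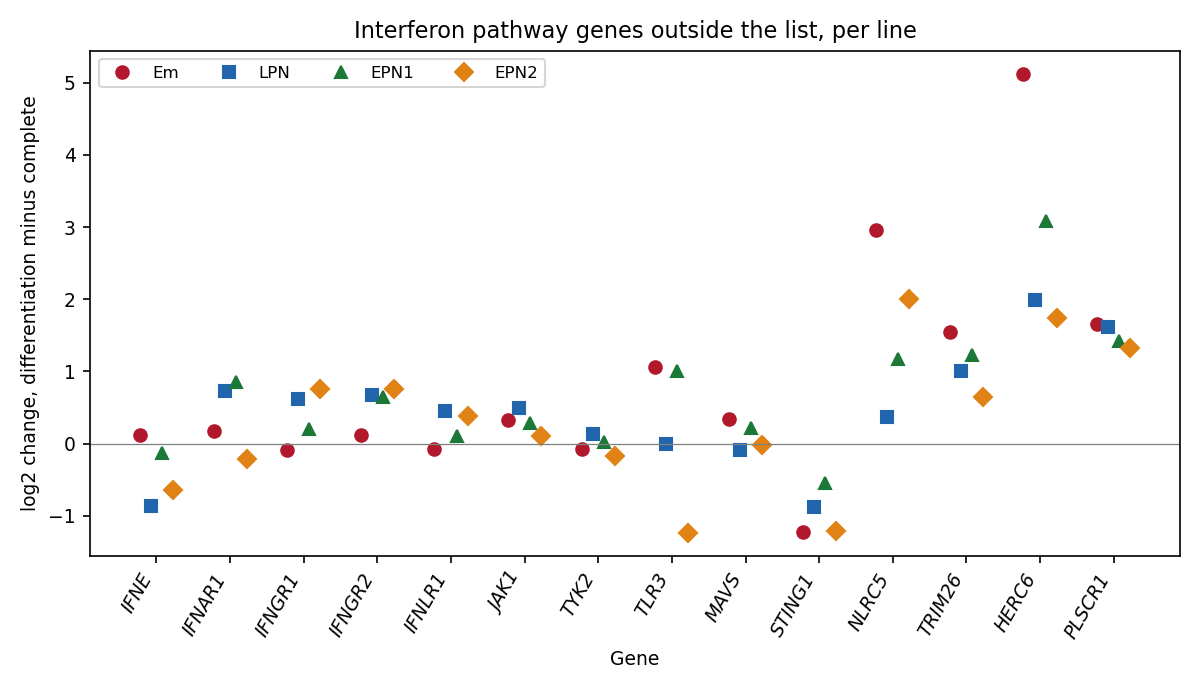
Log2 change of CPM + 0.5 between differentiation and complete medium in each line for 14 genes of the interferon pathway outside the list, with 1 symbol per line. PLSCR1 and TRIM26 are above 0 in all 4 lines, and STING1 is below 0 in all 4.

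Markers of cells other than duct were examined in the same libraries, because such cells could carry the same genes. Of the 9 immune markers 6 were tested, 0 passed in edgeR without the block (2 at an unadjusted p under 0.05) and ITGAM was lower with it. PTPRC, which marks all leukocytes, had 100, 29, 22 and 0 counts in Em, LPN, EPN1 and EPN2 in complete medium and 2, 18, 19 and 0 counts in differentiation medium. CD3E and CD163 had at most 2 counts in any library. In the Em library in differentiation medium PTPRC was thus at 2 counts, CD3E at 0 and CD163 at 2, while the immune markers other than CD79A summed to 14.8 CPM.

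The sum of the immune markers was set by CD79A, which had 45143 to 75004 counts in every library and was the most abundant of them. With CD79A the sum was 1452, 1493, 1850 and 1180 CPM in Em, LPN, EPN1 and EPN2 in complete medium and 1073, 1168, 1048 and 1221 CPM in differentiation medium. Without it the sum was 59.98, 63.7, 47.2 and 38.4 CPM in complete medium and 14.8, 101, 26.6 and 71.2 CPM in differentiation medium. The part of immune cells in the members' values was not tested. Of 3 markers of plasmacytoid dendritic cells, which make type I interferon, only TCF4 was found. It was at 7.86, 4.17, 4.37 and 4.07 CPM in Em, LPN, EPN1 and EPN2 in complete medium and at 8.22, 8.41, 9.39 and 11.7 CPM in differentiation medium. The media did not overlap for TCF4, and its log2 fold change was 0.88 (standard error 0.28, adjusted p = 0.0962, edgeR). The part of such cells in the members' values was not tested.

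Endothelial, fibroblast and acinar markers were low. CDH5 was at 0 or 1 count in every library, and the 5 acinar markers found summed to 1.85 CPM at most, with CPA1 the most abundant. The 4 endothelial markers summed to 21.8, 23.3, 34.9 and 22.6 CPM in Em, LPN, EPN1 and EPN2 in complete medium and to 43.9, 15.6, 32.3 and 20.3 CPM in differentiation medium, with KDR the most abundant. The 7 fibroblast markers summed to 6.26, 2.70, 3.77 and 0.881 CPM in complete medium. In differentiation medium they summed to 9.23, 1.27, 7.08 and 0.864 CPM, and COL3A1 exceeded PDGFRB in Em and EPN1. Of the fibroblast markers 2 were tested, and 0 passed in edgeR without the block (1 at an unadjusted p under 0.05). PDGFRB, a receptor found on fibroblasts and pericytes, was at 4.85, 2.34, 3.32 and 0.429 CPM in complete medium and at 0.825, 0.480, 0.204 and 0.0233 CPM in differentiation medium. It was lower in each line and fell with the line as a block (log2 fold change -3.04, adjusted p = 0.0160, edgeR). The endothelial and the fibroblast sums were highest in the Em library in differentiation medium, where the collagen gene COL3A1 had 5.03 CPM (6.06 CPM in EPN1), and the part of these cells in the members' values was not tested.

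The duct markers and the cycling markers moved with line as well. The 8 duct markers, led by KRT8, summed to 14126, 5465, 9785 and 3820 CPM in Em, LPN, EPN1 and EPN2 in differentiation medium, against 9104, 7021, 6567 and 6687 CPM in complete medium. They were highest in Em in both media, and 0 of 8 passed in edgeR without the block (1 at an unadjusted p under 0.05). With the line as a block CDH1, the cadherin of epithelial junctions, rose by 1.11 on the log2 scale (adjusted p = 0.0172, edgeR). The 5 cycling markers, led by TOP2A, summed to 439, 166, 251 and 222 CPM in complete medium and to 318, 99.7, 155 and 176 CPM in differentiation medium. TOP2A, CCNB1 and CDK1 fell with the line as a block, and 0 of 5 passed without it (2 at an unadjusted p under 0.05). Em had the highest and LPN the lowest cycling sum in each medium, and the part of these differences in the interferon stimulated genes was not tested.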

How the data were processed

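Total poly(A) RNA of 8 PPDO cultures was sequenced in paired ends by the authors, who ran an nf-core workflow with salmon on a pig genome whose annotation they had customised. The labels name Sscrofa11.1 as the pig build. The authors deposited estimated counts per gene, which they call raw, and their paper mentions gene length scaling. Of the values above 0, 78.6% were counted as whole, and the tolerance of that count is not given here. The rows of each gene (56060 rows, 30282 genes) were summed and rounded, and 8 reporter rows, with 0.00142% of counts, were left out. Rows for extended ends held 0.418% of the members' counts. No sample column was left unused.

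The media were compared in edgeR 4.0.16 under R 4.3.3 (TMM factors 0.935 to 1.06, default filter, quasi-likelihood test, no term besides the medium, p-values adjusted by Benjamini-Hochberg over 14475 genes, threshold 0.05) and, as an alternative, in DESeq2 1.42.0. Lines were taken from the column names. After removing the mean of each medium, libraries of the same line correlated at 0.400 to 0.657 (4 pairs) and those of different lines at -0.479 to 0.242 (12 pairs), so the line, which was grown in both media, served as a block in the paired fits. Line effects were tested with medium and line as terms. In the fit without the block, p-values measure the spread between lines, since each has 1 library per medium. With the block, and in the tests between lines, they are set against the spread left after medium and line.

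The members and all lists of genes were chosen with earlier results of these data known. The 26 members given most room are those past the threshold, those past it with the block, the 8 with the smallest p between lines and a list of well known members. The other members that the text singles out, and HERC6 and PLSCR1, were added after their values were seen. Values of a few listed genes are not reported here. Plots were made with matplotlib 3.10.9.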

Additional observations from a re-analysis of the deposited data

Results flagged for a closer look

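In each group of 4 libraries, the highest or the lowest value was compared with the nearest of the others by Dixon's criterion on the log2(CPM + 0.5) scale, for the 26 members given most room and the pathway genes named with them. Of 66 groups tested 4 were marked, where chance marks about 1 in 20. IRF1 in complete medium was 54.1 CPM in Em, while the other 3 lines lay between 30.4 and 31.1 CPM. BST2 in differentiation medium was 90.9 CPM in Em, where the other lines had 2.33 to 4.27 CPM. In differentiation medium EPN2 was far below the other lines for 2 receptor subunits, with 45.8 CPM for IFNAR1 against 144 to 158 CPM, and 77.7 CPM for IFNGR2 against 118 to 121 CPM.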

How the results depend on the processing

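With edgeR 2 members rose in differentiation medium, and the count was also 2 with DESeq2 size factors, with library totals only, without the filter on low counts, without the rows for extended ends and with rows summed by symbol. In the paired fit with the line as replicate block it was 7, with DESeq2 it was 20 both without and with the replicate block, and none of these fits called a member lower. Without both libraries of Em, the count was 6 with the replicate block in edgeR, 12 with DESeq2 and 17 with DESeq2 and the replicate block, where 1 member, BST2, was called lower (these fits were added after seeing the data). When 1 library or both libraries of a line were left out in edgeR without the block (the latter chosen after seeing the data), the count ranged from 0 to 3. It was 0 without Em, LPN or EPN1 in complete medium, without Em or EPN1 in differentiation medium, and without both libraries of Em, LPN or EPN1, and it was 1 (SAMD9) without both of EPN2. The third member called without LPN in differentiation medium was IFI6. Between lines 0 members passed, and 1 did without the filter on low counts. Of the pathway genes outside the list 2 of 48 passed in edgeR, and 7 of 48 did with the replicate block. DESeq2 without the block called 7 of 53, all higher and IFNK among them, against 8.86% of all genes called higher in that fit. The cause of these differences between fits was not tested.

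For the 26 members given most room, 517 values with an adjusted p came from 20 other fits (DESeq2 without the block gave none for MX2, OAS2 and BST2), of which 459 kept direction and side of the threshold, 31 passed it only there, 17 lost it and 10 reversed. Reversals, as log2 fold changes, were those of IFIT5 without Em in differentiation medium (-6.52e-05), MX2 without that library (-0.014) and without both of Em (-0.0061), IRF1 without Em (-0.12) or EPN1 (-0.04) in differentiation medium and without both of EPN1 (-0.12), and BST2 with the replicate block in edgeR (-0.20) and DESeq2 (-0.22), without Em in differentiation medium (-1.18) and without both of Em (-1.11). Over the fits that left out libraries, the range was -6.52e-05 to 1.04 for IFIT5, -0.014 to 3.21 for MX2, -0.12 to 0.40 for IRF1 and -1.18 to 2.36 for BST2. The median log2 change per line kept its sign with a pseudocount of 0.1 or 2, library totals or DESeq2 size factors, at 3.0 to 3.29 in Em, 0.04 to 0.10 in LPN, 0.81 to 1.17 in EPN1 and 0.95 to 1.13 in EPN2. Depth limits the statements on OAS1, ZBP1, RSAD2 and OASL, which had fewer than 50 counts in each library in complete medium.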

Other observations

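Other interferon inducible genes outside the list varied in which line was highest. SAMHD1, which depletes nucleotides and was the most abundant of them, had 9722, 17607, 10805 and 7708 counts in Em, LPN, EPN1 and EPN2 in complete medium and 6357, 51468, 19870 and 24021 counts in differentiation medium, so that LPN was highest and Em lowest in differentiation medium (adjusted p = 0.274, edgeR). IFITM3, a membrane protein that blocks virus entry, had 8450, 5517, 4015 and 3252 counts in Em, LPN, EPN1 and EPN2 in complete medium and 25957, 3058, 4041 and 1236 counts in differentiation medium, with Em highest in both (adjusted p = 0.698). The chemokine CXCL10 had 12, 2, 0 and 0 counts in complete medium and 136, 0, 14 and 17 counts in differentiation medium in the same order of lines (adjusted p = 0.222). The subunit PSMB9 of the immunoproteasome had 158, 114, 66 and 87 counts in complete medium and 179, 27, 34 and 32 counts in differentiation medium (adjusted p = 0.488, edgeR). Like BST2 it was lower in LPN, EPN1 and EPN2, but unlike BST2 it changed little in Em.

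Of the reporter rows left out of all tests, the row mTmG_eGFP_bGH-pA-plus had 4579 counts in EPN1 in complete medium, 197 in EPN1 in differentiation medium and at most 11 in the other 6 libraries. The row eGFP-plus had 0, 11, 68 and 6 counts in Em, LPN, EPN1 and EPN2 in complete medium. In differentiation medium it had 0, 39, 19 and 41 counts. Whether these rows reflect a transgene was not tested.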
